A study of Mus musculus with 50 samples.

Results

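Spinal motor neurons at postnatal day 4 (P4) and at P56 were compared by RNA sequencing of isolated nuclei, with 3 libraries at each age taken as labelled from the 50 samples of the series. Both ages came from C57BL/6 mice that carried Chat-Cre together with SUN1-GFP, a nuclear envelope protein fused to GFP and a MYC tag that is made only after Cre has acted. Nuclei were drawn from brachial and lumbar spinal cord, several animals were pooled for each library, males and females were both used in each experiment, and GFP-positive nuclei were captured on antibody-coated beads. No treatment distinguished the groups. Besides age, homogenisation was somewhat gentler at P4, and the study's methods give a lower share of GFP-positive nuclei at P4 than at P13 and later, with some nuclei of blood vessels among those captured at P4. Chat-Cre is driven from the gene for the acetylcholine-synthesising enzyme, so the tagged nuclei include skeletal and visceral motor neurons and cholinergic interneurons. They may also include neurons that used the promoter only for a time. From published single-nucleus profiles, the study estimated its P56 RNA to be mostly of skeletal motor neurons. It found no significant part from non-cholinergic cells. All comparisons below were made on all nuclei of a library together. The libraries are pools, and p-values measure the spread between pools.

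A spinal motor neuron is born in the embryo, where LIM homeodomain and Hox factors set its columnar and pool identity, and it keeps its cholinergic identity for life. After birth the cell grows severalfold, loses surplus synapses at the muscle, and acquires the firing properties, large axon calibre and surrounding matrix of the adult. The gene families below were arranged by these roles, from identity factors through receptors, channels and cytoskeleton to growth and general cell machinery.

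Between 3820957 and 4379026 estimated gene counts were available per P4 library and between 3931133 and 3978850 per P56 library. Correlations of log2 normalised counts ran from 0.950 to 0.971 between replicates of an age and from 0.792 to 0.840 between the ages. A gene was called when edgeR's quasi-likelihood test gave an unadjusted p under 0.001 and the difference was at least 2-fold. Of 15030 genes tested, 904 (6.01%) were called higher at P56 and 1765 (11.7%) were called lower, and the median log2 fold change over all of them was -0.04. With the limit placed on the adjusted p instead, 1232 (8.2%) were higher and 2292 (15.2%) lower. Large falls outnumbered large rises, with 354 called genes at least 16-fold lower and 11 at least 16-fold higher at P56. Of 1854 genes placed in 95 family lists, 1562 were tested, 94 were called higher and 362 were called lower. Values given for single genes are normalised counts, which are read counts scaled by library and not by gene length, in the order of the 3 libraries. Fold changes are P56 over P4 on the log2 scale with their standard errors, and adjusted p-values are Benjamini-Hochberg values over all genes tested. A median fold change given for a list is over its tested members, and the same figures over all genes are those just given.

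**Figure D1:**
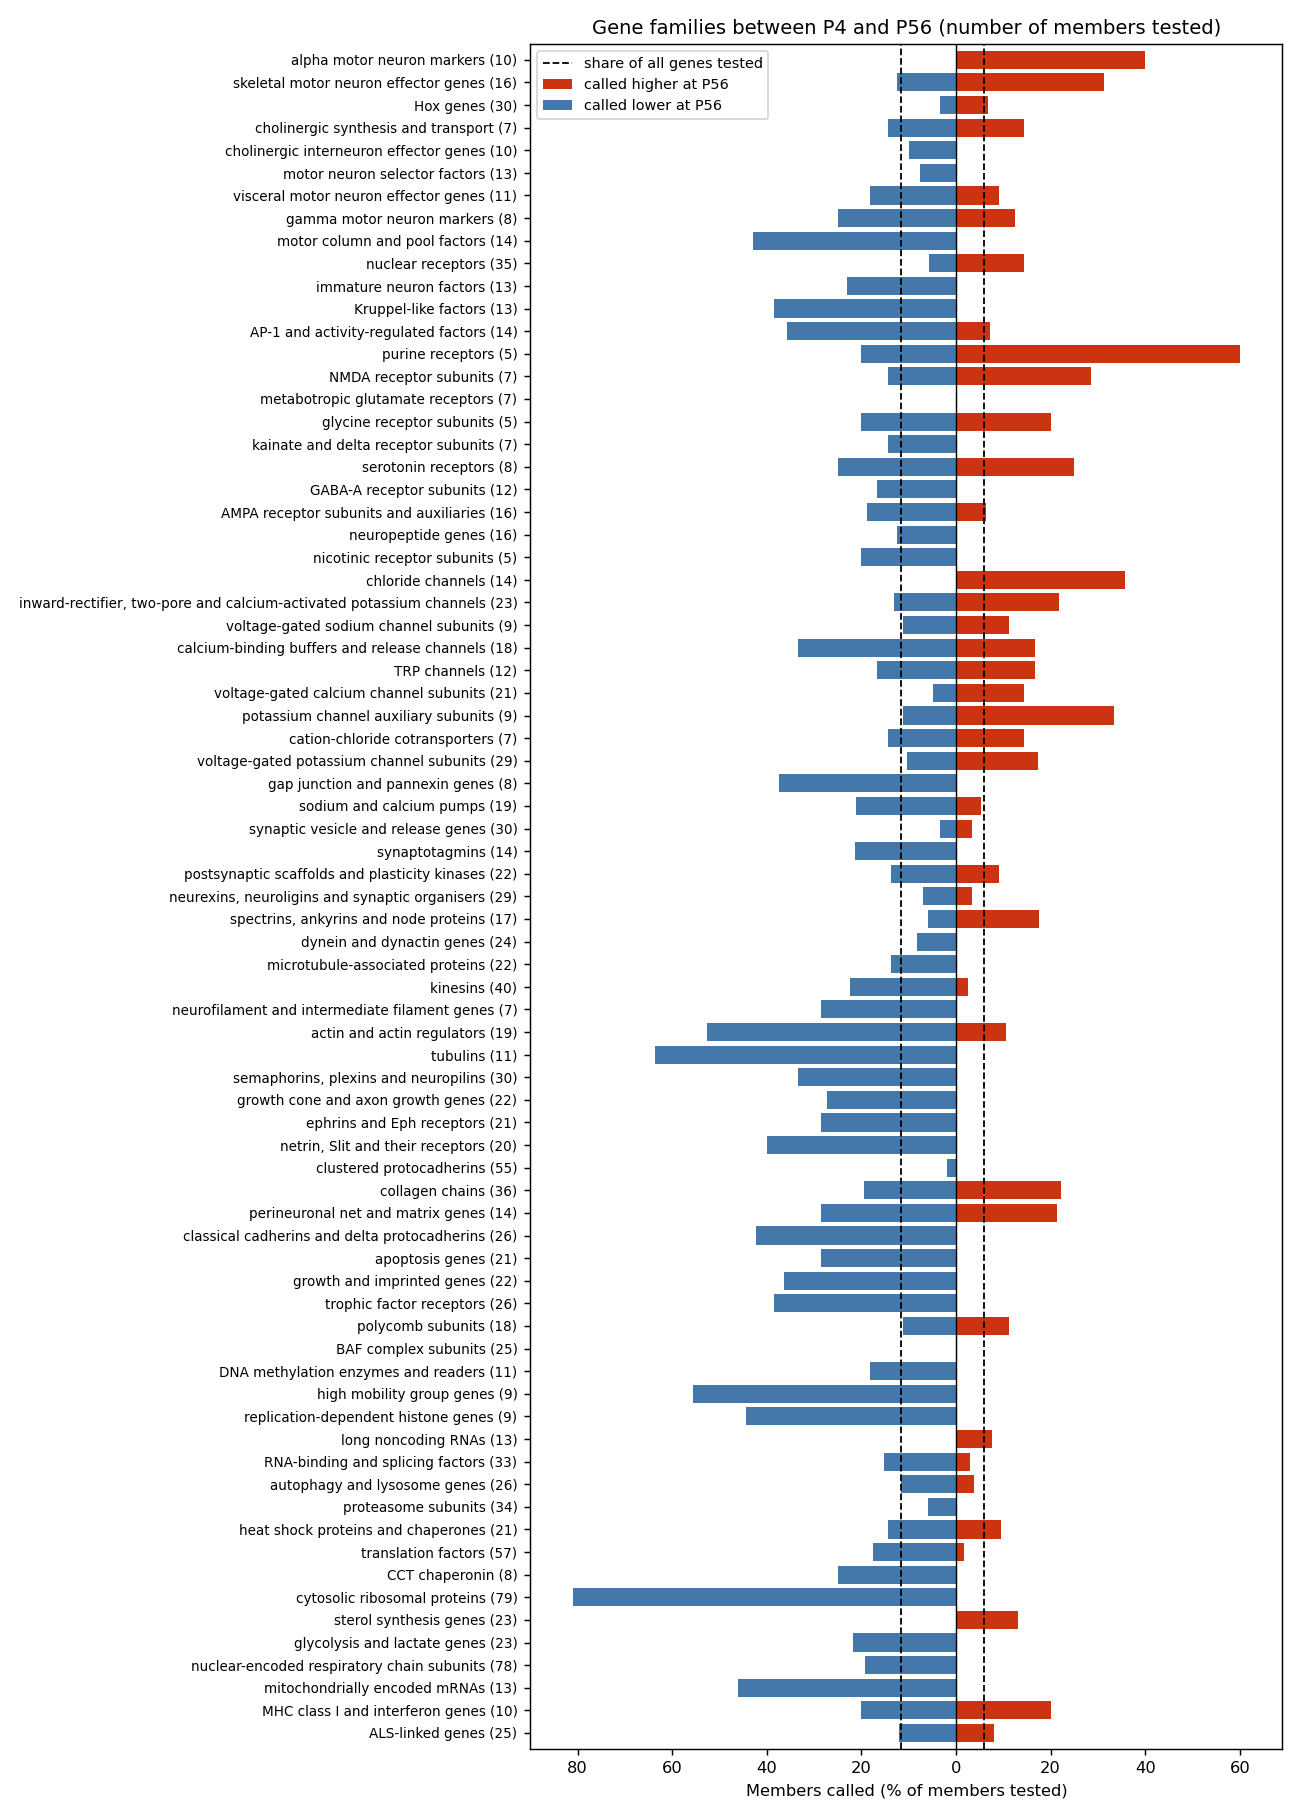
Share of the tested members of each gene family that was called higher (right, red) or lower (left, blue) at P56 than at P4, in percent, with the number tested in brackets. Dashed lines mark the shares over all genes tested, 6.01% and 11.7%. Marker lists of other cells and lists with under 5 tested members are not drawn. Among the families drawn, cytosolic ribosomal proteins, tubulins and high mobility group genes reach furthest to the left, and purine receptors and alpha motor neuron markers furthest to the right.

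RNA of blood vessels was present in the P4 libraries and nearly gone from the P56 libraries. All 15 endothelial markers were called lower at P56. Their summed normalised counts ranged from 8079 to 10823 at P4, from 548 to 774 at P13, and from 46.9 to 106 at P56, and Erg was at 0 in all 3 P56 libraries. Kdr, the main receptor for vascular endothelial growth factor, read 2424, 1835 and 1773 at P4 and 1.38, 4.02 and 2.64 at P56. For pericyte and smooth muscle markers, 6 of 8 were called lower and the sums went from 3499 to 5171 down to 70.3 to 108. Fibroblast and meningeal sums were 4217.5 to 5712 against 171 to 341, with 3 of 9 called lower, among them Fn1 and Col3a1. Erythroid sums were 1155 to 1565 against 72.7 to 103, with 5 of 6 called lower. Astrocyte sums were 3446 to 4317 against 1207 to 1894, with 8 of 10 called lower, and 13 of 18 proliferation markers were called lower, Mki67 going from 707, 637 and 579.8 to 13.8, 6.71 and 2.64. Of 8 oligodendrocyte precursor markers, 3 were called lower. Oligodendrocyte sums overlapped, at 2326 to 2954 and 2498 to 3762, and 1 microglial marker had enough reads to test. Schwann cell sums were higher at P56 without overlap, at 862 to 1230 and 1568 to 2326, with 1 of 7 called higher. So were inhibitory interneuron sums, at 763 to 1392 and 1414 to 1555, with 1 of 10 called in each direction. Ependymal sums were higher too, at 18.1 to 37.3 and 41.0 to 67.1, with 1 marker tested and called higher. Excitatory neuron sums were lower without overlap, at 309 to 447 and 174 to 235, with 0 of 4 called. In bulk libraries, fewer cells of a type and less RNA per cell cannot be told apart, although the methods name vessel nuclei only among the captures of the younger ages. The part of these cells in the results below was not tested except where a value is given.

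**Figure D2:**
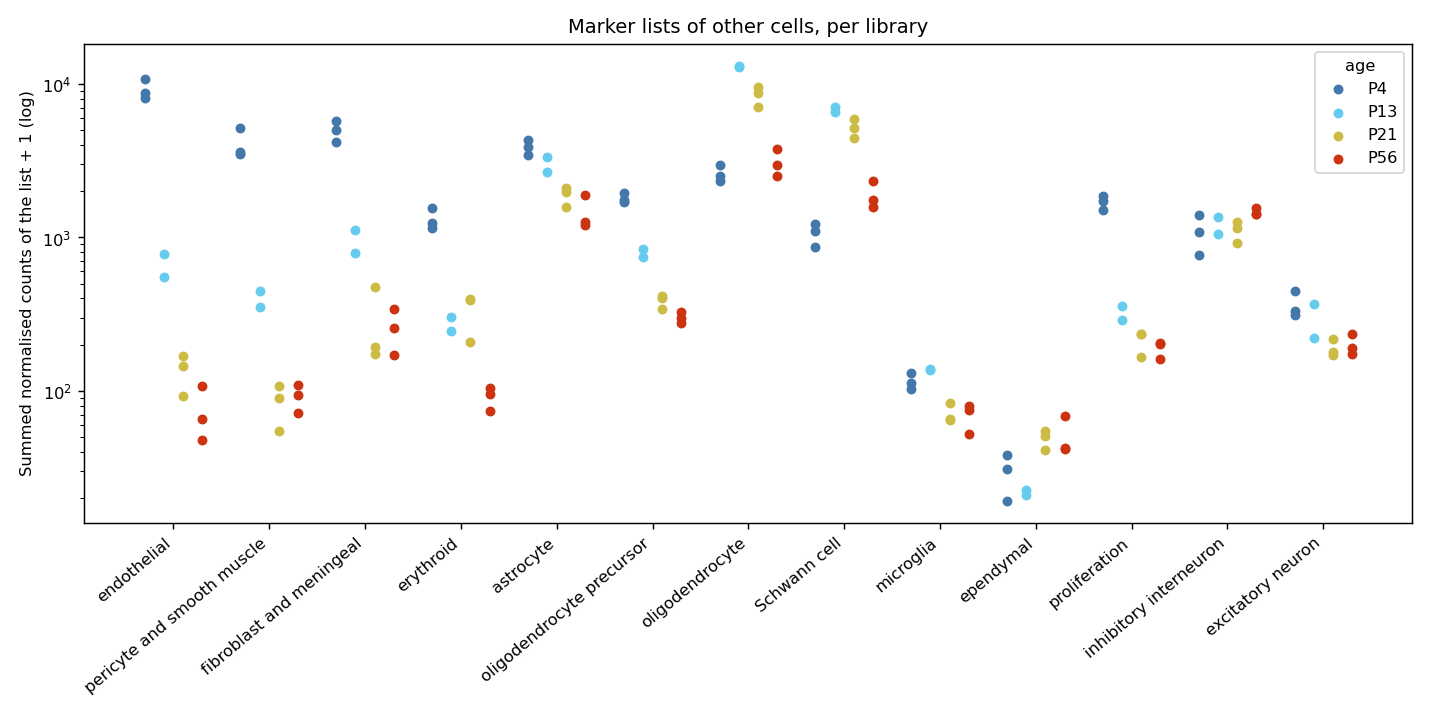
Summed normalised counts of the marker lists of other cells in each library (log axis, 1 added), by age. Endothelial sums fall from 8079 to 10823 at P4 to 46.9 to 106 at P56, while the oligodendrocyte and Schwann cell sums are highest at P13.

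A second contrast, chosen after these values had been seen, set the 2 P13 libraries in place of P4. P13 has a lower endothelial sum than P4, but its oligodendrocyte sum, 13021 to 13185, and its Schwann cell sum, 6632 to 7128, are the highest of the 4 ages from P4 to P56. In that contrast 429 genes (2.85%) were called higher at P56 and 1135 (7.55%) lower, together 10.4% of those tested. Both contrasts use the same P56 libraries, so their counts are not independent, and counts from the second contrast are placed beside those of the first for many of the families. The P4 libraries also differed among themselves. Xist, the noncoding RNA of the inactive X chromosome, read 5.64, 8467 and 6849.7 at P4 and 4550.3, 4052 and 2945 at P56, so P4 replicate 1 held almost none, whereas the other 5 libraries did, and the Y-linked Kdm5d read 528, 339.8 and 250.4 at P4. That library therefore goes against a pool of both sexes.

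Start sites of 4 genes are shown first because they span the kinds of change found: a receptor subunit that rose, an RNA-binding protein that fell, an axon initial segment gene that rose, and a ribosomal protein gene that fell. Each run covers 150 bases before the annotated start and 20 after it, read 5′ to 3′ along the gene's strand from RefSeq on GRCm38.p6, with the first 10 transcribed bases in capitals.
Grin3b, chr10:79970574-79970743, plus strand: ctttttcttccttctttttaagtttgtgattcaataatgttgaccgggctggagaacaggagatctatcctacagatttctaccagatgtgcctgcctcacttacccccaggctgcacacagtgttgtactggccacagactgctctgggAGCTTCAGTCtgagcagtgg
Igf2bp3, chr6:49214935-49215104, minus strand: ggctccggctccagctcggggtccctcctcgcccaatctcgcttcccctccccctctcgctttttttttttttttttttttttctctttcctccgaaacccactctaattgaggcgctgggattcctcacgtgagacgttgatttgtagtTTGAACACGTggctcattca
Sptbn4, chr7:27446570-27446739, minus strand: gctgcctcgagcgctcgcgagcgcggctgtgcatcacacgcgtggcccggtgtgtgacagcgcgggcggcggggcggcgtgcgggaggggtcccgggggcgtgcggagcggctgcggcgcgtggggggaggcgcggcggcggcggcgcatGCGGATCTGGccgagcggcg
Rpl38, chr11:114668430-114668599, plus strand: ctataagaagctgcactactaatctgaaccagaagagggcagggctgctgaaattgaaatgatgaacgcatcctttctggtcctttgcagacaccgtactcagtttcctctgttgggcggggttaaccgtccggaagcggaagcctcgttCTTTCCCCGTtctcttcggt

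Peaks of open chromatin (ATAC-seq, called by the authors in each of 2 libraries per age) overlapped these windows in different ways. Peak enrichment, the authors' fold of reads over local background, was 4.06 and 3.50 at P4 and 6.40 and 5.73 at P56 over the Grin3b start, whose RNA read 2.26, 4.38 and 5.01 at P4 and 161, 146 and 116 at P56. Over the Igf2bp3 start it was 2.95 and 2.26 at P4, and no peak was listed there at P56. The Igf2bp3 RNA read 31.6, 50.4 and 47.6 and 4.14, 0 and 1.32. Over the start of Sptbn4 the enrichment was 10.7 and 10.1 at P4 and lower, 3.70 and 2.04, at P56, although its RNA rose from 808, 791 and 669 to 2199, 2328.5 and 1613. Of 4 starts listed for the gene, the start with the highest peak is shown. The Rpl38 start had peaks of similar enrichment at both ages, 9.07 and 8.01 against 9.54 and 10.1, while its RNA fell from 179, 137 and 188 to 15.2, 8.05 and 31.7. With 2 peak lists per age and no read depth, no test was made of the peaks.

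Motif letters were searched on both strands of the same 170-base windows. The Rpl38 window held 1 ETS motif (CCGGAAG, in 6.78% of 32544 promoter windows) and 1 Sp1 box (GGGCGG, 30.5%), and its transcript begins with a C followed by 4 pyrimidines, as do 2.51% of the windows. The Sptbn4 window held 2 Sp1 boxes. The Igf2bp3 window held 1 CCAAT box (CCAAT, 26.2%) and 2 matches to the E-box CACGTG (4.86%). The Grin3b window held 1 match to the AP-1 site TGANTCA (4.73%), and none of the 4 windows held TATAAA (8.09%). No 2 different motifs overlapped in any of these windows, and a match is only a description of the letters.

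Genes of the cholinergic phenotype had similar sums at both ages. Of 7 tested genes of acetylcholine synthesis and transport, 1 was called higher and 1 lower, and the summed list read 3792, 3438 and 3837 at P4 and 3938, 3792 and 3906 at P56. Chat, the synthesising enzyme, read 485, 497 and 452 at P4 and 749, 659 and 645 at P56 (log2 fold change 0.52 ± 0.23, adjusted p = 0.077). Slc18a3, the vesicular acetylcholine transporter, read 289, 229 and 263 and 182, 188 and 169, so its groups did not overlap, but it was not called (adjusted p = 0.22). Ache, which degrades acetylcholine at the synapse, rose from 231, 173 and 182 to 552, 616 and 524 (log2 fold change 1.53 ± 0.21, adjusted p = 1.8e-05). Bche, the related butyrylcholinesterase, fell from 38.4, 42.75 and 22.5 to 2.76, 4.02 and 6.61.

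Of 13 factors that specify motor neurons as a class, 1 was called lower at P56 and none higher. Isl1, the LIM homeodomain factor that acts with Lhx3 in the embryo, read 427, 359.6 and 364 at P4 and 234, 236 and 197 at P56, without overlap, and at a log2 fold change of -0.78 ± 0.21 it stayed under the 2-fold limit. Its relative Isl2 read 29.3, 16.4 and 30.1 and 38.6, 42.9 and 29.1, and Mnx1 read 13.54, 17.5 and 16.3 and 34.5, 8.05 and 14.53, both with overlapping groups. The called member was Nkx6-1, which read 13.54, 19.7 and 10.02 and then 4.14, 2.68 and 3.96. Calls lost on leaving out 1 library were those of Nkx6-1 (without P4 replicate 2).

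Of 14 factors that divide motor neurons into columns and pools, 6 were called lower (3 without P4 replicate 2) and none higher, with a median log2 fold change of -1.08. Foxp1, which directs the limb-innervating lateral motor column, fell from 641, 540.4 and 456 to 159, 229 and 219 (log2 fold change -1.43 ± 0.28, adjusted p = 5.3e-04). Aldh1a2, the retinoic acid synthesising enzyme of limb-level motor neurons, fell from 95.9, 64.7 and 128 to 12.4, 10.7 and 5.28. Aldh1a2 is also made in meninges, whose marker sums fell as given above. The Hox cofactors Meis1, Meis2 and Pbx3 fell (log2 fold changes -1.44, -1.14 and -1.10), and the repressor Zeb2 (log2 fold change -1.0). Between P13 and P56, none of the 14 was called in either direction. Leaving out 1 library ended the call of Meis2 (without P4 replicate 2), Pbx3 (without P4 replicate 2, or P56 replicate 1, 2 or 3) and Zeb2 (without P4 replicate 2, or P56 replicate 1 or 3).

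Hox genes, which set position along the cord, did not fall together. Of 30 tested, 2 were called higher and 1 lower, with 17 positive and 13 negative fold changes, and between P13 and P56 3 were called higher and 1 lower. Hoxc5 rose from 99.3, 158 and 86.4 to 389, 322 and 205 and its neighbour Hoxc6 from 102, 135 and 111 to 374, 331 and 192, while Hoxb8 fell from 95.9, 114 and 119 to 40, 68.4 and 38.3. The lowest P56 value of both Hoxc genes was that of replicate 3. Without 1 library the call was lost for Hoxb8 (without P4 replicate 2 or 3, or P56 replicate 1 or 3).

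Effector genes of skeletal motor neurons were called higher in 5 of 16 cases and lower in 2, with a median of 0.62. Anxa4, a calcium-dependent membrane-binding protein, rose from 139, 112 and 138 to 1034, 1175 and 902 (log2 fold change 3.0 ± 0.14, adjusted p = 1.3e-10), through 238 at P13 and 665 at P21. The zinc finger factors Zbtb16 and Rreb1 rose (log2 fold changes 2.16 ± 0.22 and 1.08 ± 0.23). Plekhg1, a guanine nucleotide exchange factor, fell from 946, 931 and 790.2 to 145, 110.0 and 129 (log2 fold change -2.79 ± 0.20, adjusted p = 9.8e-09). Among 11 tested visceral motor neuron effector genes, 1 was called higher and 2 lower. The 2 were Gnb4, a G protein beta subunit (-2.33 ± 0.24), and the phosphodiesterase Pde8a (-1.97 ± 0.29), and the prostaglandin D synthase Hpgds rose (1.40 ± 0.28). Of 10 cholinergic interneuron genes, only Mpped2 was called, and was lower (log2 fold change -1.08). These class lists were taken by the study from published single-nucleus data, and whether the classes differed from each other was not tested. When 1 library was left out, the call was lost for Rreb1 (without P4 replicate 2 or 3, or P56 replicate 1 or 2) and Mpped2 (without any 1 of the 6).

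Markers of alpha motor neurons, which drive the force-producing muscle fibres, were called higher in 4 of 10 cases and never lower. From P13 to P56 none was called higher and 1 lower, with a median of -0.45, and the list summed to a mean of 13596 at P13 and 5867 at P56. Vipr2, a receptor for vasoactive intestinal peptide, rose from 48.5, 36.2 and 50.1 to 161, 110.0 and 132 (log2 fold change 1.58 ± 0.28, adjusted p = 2.5e-04), and the kinase gene Stk32a rose from 108, 85.5 and 155 to 409.6, 372 and 409.5. Spp1 and Kcng4 completed the 4, at 2.83 ± 0.32 and 3.0 ± 0.31. Several known alpha markers did not move past the test: Rbfox3, the NeuN antigen, read 346.5, 316 and 298 and 463, 405 and 382, and Chodl and Mmp9, both of fast motor neurons, were not called (-0.73 ± 0.37 and 0.01 ± 0.34). Of 8 markers of gamma motor neurons, which serve the muscle spindle, 1 rose and 2 fell. Htr1d, a serotonin receptor, rose from 11.3, 9.87 and 18.8 to 71.7, 85.8 and 56.8. Wnt7a fell from 45.1, 42.75 and 61.4 to 11.03, 20.1 and 9.25 and Gfra1 from 946, 808 and 1098 to 498, 487 and 392. Esrrg, a nuclear receptor of gamma cells, read 358, 343 and 361 and 181, 177 and 189 and stayed just under 2-fold (log2 fold change -0.96 ± 0.30, adjusted p = 0.016). No gamma marker was called between P13 and P56. On omission of 1 library the call ended for Wnt7a (without P4 replicate 3, or P56 replicate 1 or 3) and Gfra1 (without P4 replicate 1 or 3, or P56 replicate 1, 2 or 3).

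Of 13 immature neuron genes, 3 were called lower, none higher and 10 were not called, and between P13 and P56 1 was called lower. Sox4 fell from 286, 238 and 220.4 to 26.2, 26.8 and 34.35 (log2 fold change -3.08 ± 0.26, adjusted p = 8.7e-08), its relative Sox11 fell by less, from 554, 589 and 551 to 240.0, 252 and 247 (log2 fold change -1.19 ± 0.19, adjusted p = 7.9e-05), and Dcx, the microtubule protein of migrating neurons, fell from 1394, 1313 and 1168 to 352, 398 and 439. Dcx had reached 331 by P13. None of the 4 nuclear factor I genes was called, although Nfia and Nfib were lower without overlap, at -0.91 ± 0.28 and -0.88 ± 0.26. Nfix read 114, 138 and 91.4 and 77.2, 69.7 and 63.4, and Nfic read 396, 328 and 334 and 444, 319 and 341.

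Of 14 AP-1 and activity-regulated factors, 5 were called lower, 1 higher and 8 were not called, with a median of -1.21. Jun fell from 570.0, 487 and 523 to 167, 130.1 and 132, Egr1 from 158, 80.02 and 77.6 to 27.6, 10.7 and 31.7, and Jund and Ier2 fell (log2 fold changes -1.73 and -2.93). Atf3, which neurons induce after axon injury, read 20.3, 7.67 and 10.02 and 0, 0 and 1.32. Fosl2 rose from 22.6, 21.9 and 35.1 to 66.2, 68.4 and 55.5, and Fos overlapped, at 14.7, 8.77 and 27.55 and 23.4, 21.5 and 14.53. Of 13 Kruppel-like factors, 5 fell and 8 were not called. Klf2 and Klf4, both abundant in endothelium, went from 209.9, 144 and 123 and 156, 122 and 104 to 4.14, 4.02 and 5.28 and 1.38, 0 and 2.64 respectively, with the endothelial sums given above. Klf6, Klf10 and Klf11 fell by less, at -1.27, -1.59 and -1.57. Between P13 and P56 no Kruppel-like factor was called, and 1 of the 14 activity-regulated factors was called in each direction. Of 3 Mef2 factors tested, 1 was called lower and 2 were not called, at log2 fold changes of -0.42 and 0.40. The called gene, Mef2c, a factor of synapse refinement, fell from 203, 178 and 167 to 56.55, 46.9 and 79.3. A single omitted library ended the call of Klf11 (without P56 replicate 1 or 2).

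Nuclear receptors, which bind steroid, thyroid, retinoid and lipid ligands, were called higher in 5 of 35 cases (14.3%, beside 6.01% of all genes) and lower in 2. Without P4 replicate 2, 3 were called higher. Vdr, the vitamin D receptor, read 2.26, 6.58 and 6.26 at P4 and 37.2, 48.3 and 36.99 at P56. Nr1h3, the oxysterol receptor, rose from 5.64, 3.29 and 6.26 to 37.2, 52.3 and 48.9. Nr5a2 read 4.51, 1.096 and 1.25 at P4 and 19.3, 25.5 and 17.2 at P56. Nr3c1, the glucocorticoid receptor, fell from 359, 366 and 393 to 154, 165 and 176, and Nr2f1 fell (log2 fold change -1.09). Between P13 and P56, 4 of the 35 were called higher and none lower. Calls lost on leaving out 1 library were those of Nr5a2 (without P4 replicate 2 or 3, or P56 replicate 1 or 2) and Nr2f1 (without P4 replicate 1 or 2, or P56 replicate 1 or 3).

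Members of the NMDA receptor family moved in both directions. The summed counts of the 7 NMDA receptor genes were 6894, 6828 and 6939 at P4 and 6010, 6171 and 5809 at P56. Within them Grin3b and Grin2c rose and Grin2a fell, and between P13 and P56 3 of the 7 were called higher and none lower. Grin2c, a subunit of low magnesium block, went from 4.51, 4.38 and 8.77 to 77.2, 106 and 58.1 (log2 fold change 3.77 ± 0.38, adjusted p = 6.2e-07), and Grin2a from 2035, 1935 and 2279 to 899, 1001 and 1095 (log2 fold change -1.06 ± 0.26, adjusted p = 0.0037). The obligate subunit Grin1 read 1802, 1725 and 1789 and 2470.3, 2528 and 2074, and Grin2b read 1981, 2146 and 1923 and 1404, 1459 and 1554, and neither was called. Leaving out 1 library ended the call of Grin2a (without any 1 of the 6).

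To compare subunits with each other, TPM values, which correct for gene length, were expressed as shares of a subfamily in each library. Of 73 shares compared in 20 subfamilies, 62 did not overlap between the ages, while over all genes tested the P56 normalised counts lay above all P4 values in 27.0% and below them in 32.0%. With 3 libraries at each age the exact permutation test (two-sided) cannot give a p below 0.1, and none of the shares passed after adjustment over the 73 (smallest adjusted p = 0.118). Among the glutamate receptor shares, that of the glycine-binding GluN3 pair shifted most. Grin3b made 1.39% ± 0.518 (SD, n = 3) of the pair at P4 and 38.8% ± 6.86 at P56, with Grin3a as the remainder, while their total was 16.25 ± 4.49 TPM at P4 and 16.8 ± 0.967 TPM at P56. Among GluN2 subunits Grin2a went from 32.7% ± 4.63 to 21.6% ± 4.59 and Grin2d from 9.901% ± 1.77 to 16.3% ± 3.196, and the share of Grin2b overlapped. Of the AMPA receptor subunits, Gria3 went from 16.6% ± 2.94 to 25.8% ± 0.345 and Gria2, whose edited form limits calcium entry, from 51.7% ± 1.72 to 46.3% ± 1.48.

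No AMPA receptor core subunit was called, but auxiliaries were. Gria2 read 6876, 6887 and 6996 at P4 and 5783, 5376 and 5639.7 at P56. Of 16 AMPA subunits and auxiliaries, 1 was called higher and 3 lower. Cacng7, a transmembrane AMPA receptor regulatory protein, rose from 48.5, 62.5 and 65.1 to 189, 228 and 196 (log2 fold change 1.80 ± 0.17, adjusted p = 2.3e-07), while its relative Cacng4 fell from 169, 173 and 162 to 46.9, 53.65 and 38.3 (log2 fold change -1.86 ± 0.26, adjusted p = 2.6e-05). Shisa6 and Gsg1l, a pair of other auxiliaries, fell (log2 fold changes -1.14 and -1.57). Grik1, a kainate receptor subunit, fell from 1108, 1347 and 1041 to 363, 382 and 450.5, alone among 7 kainate and delta subunits. No metabotropic glutamate receptor of 7 was called. Without 1 library the call was lost for Shisa6 (without P4 replicate 1 or 2, or P56 replicate 1, 2 or 3) and Gsg1l (without any 1 of the 6).

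The alpha subunits of the inhibitory glycine receptor moved in opposite directions. Glra1, the adult glycine receptor alpha subunit, rose from 309, 329 and 311 to 783, 646.5 and 688 (log2 fold change 1.16 ± 0.15, adjusted p = 1.1e-05), and Glra2, the neonatal subunit, fell from 197.5, 179.8 and 203 to 9.655, 22.8 and 18.5 (log2 fold change -3.49 ± 0.48, adjusted p = 1.9e-05). Glra1 made 65.2% ± 1.76 of alpha subunit TPM at P4 and 94.5% ± 0.859 at P56, and Glra2 28.9% ± 2.13 and 1.71% ± 0.783. The shared beta subunit Glrb overlapped, at 255, 319 and 347 and 240.0, 268 and 342. At P13 Glra1 already read 732 and Glra2 39.8. GABA-A receptor subunits were lower on the whole, with 11 of 12 fold changes negative and 2 called lower, Gabrg3 from 694, 728 and 656 to 188, 221 and 209 and Gabrq from 192, 171 and 163 to 49.7, 63.04 and 58.1. The chloride gradient on which both receptor types depend is set by a pair of cotransporters. Slc12a2, the importer NKCC1, read 450.3, 545 and 501 and 259, 278 and 317, a fold change of -0.81 ± 0.17 that was under 2-fold, and Slc12a5, the exporter KCC2, read 735, 832 and 779 and 1169.6, 1065 and 943 and was not called. The NKCC1 share of the pair was 16.5% ± 1.102 at P4 and 7.75% ± 2.52 at P56. In the same cotransporter list of 7, Slc12a3 rose (1.74 ± 0.40) and Slc12a4 fell (-3.0 ± 0.57). When 1 library was left out, the call was lost for Slc12a3 (without P4 replicate 1 or 2, or P56 replicate 1, 2 or 3).

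**Figure D3:**
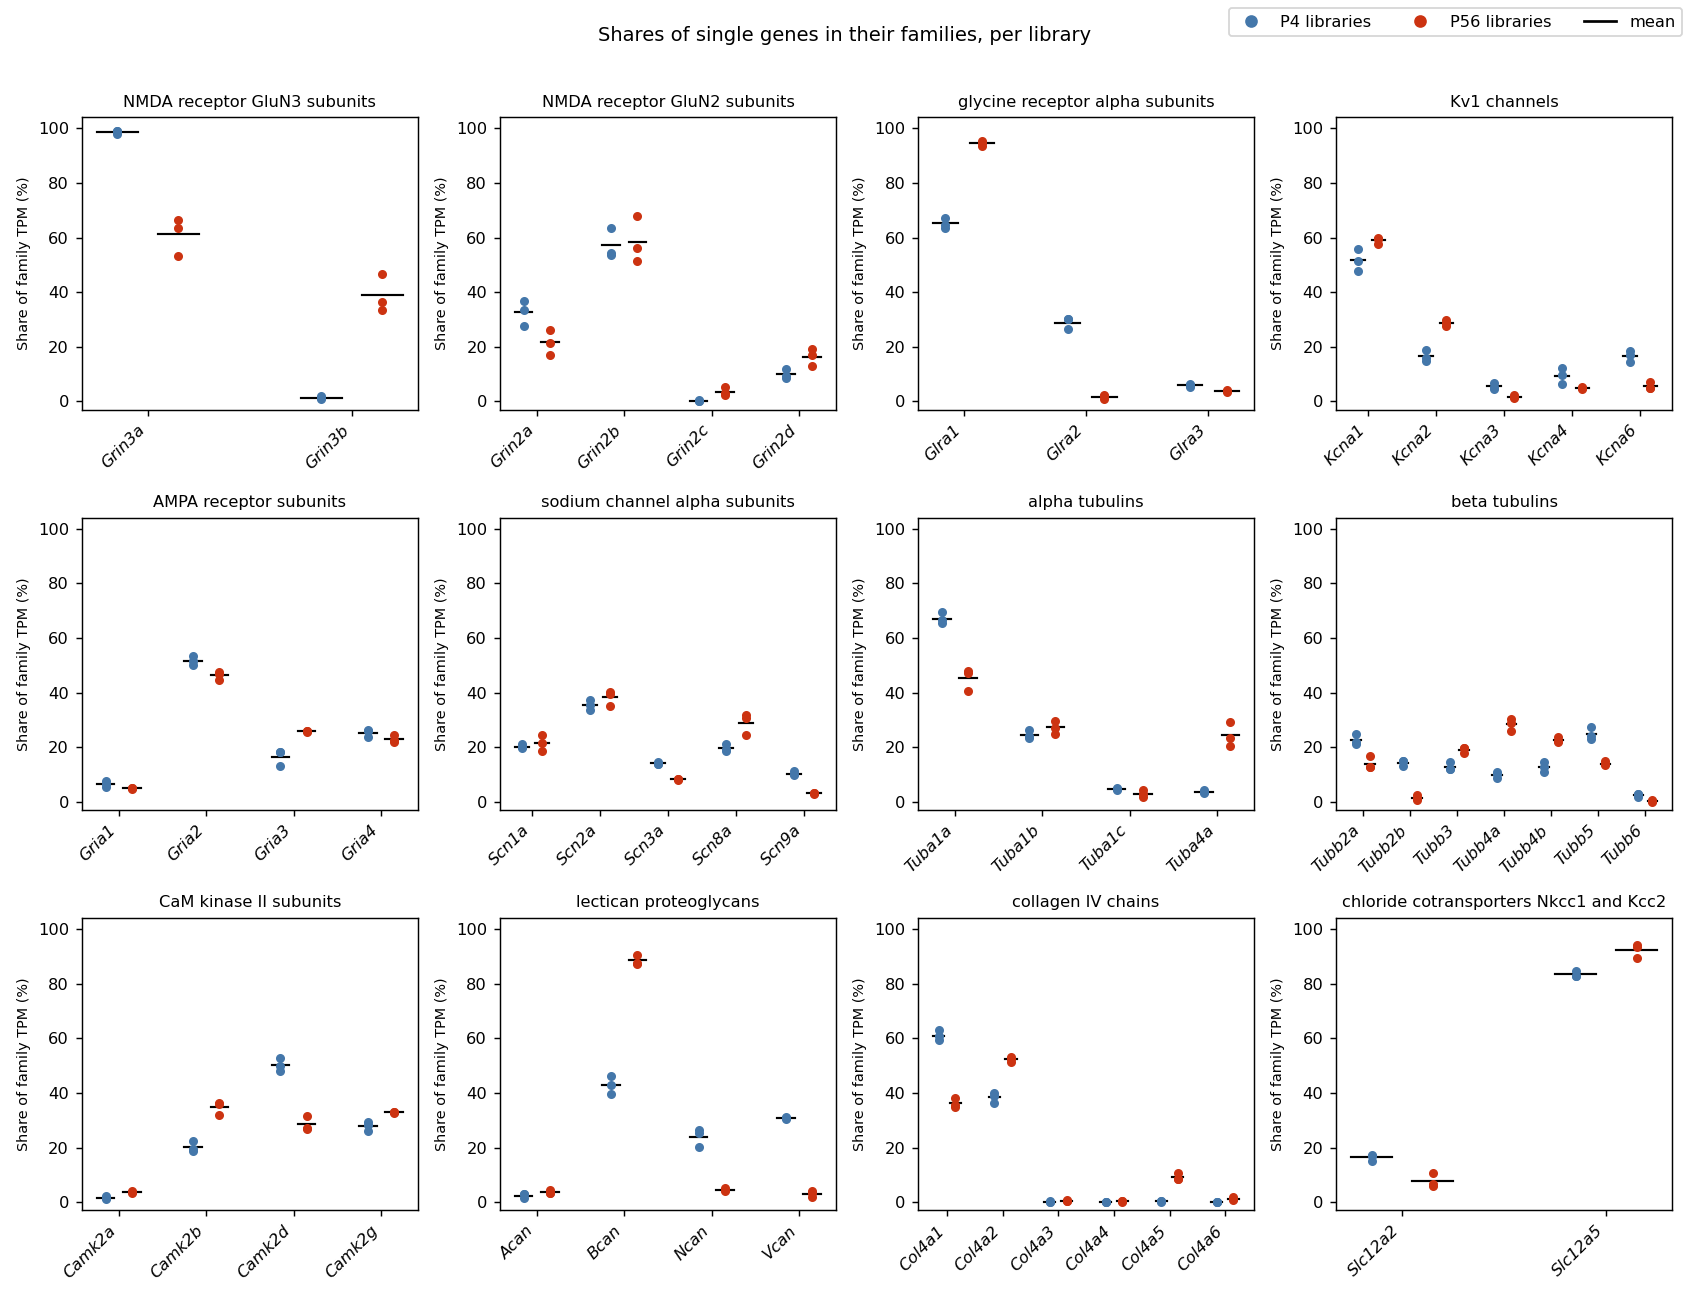
Share of each subunit in the TPM of its subfamily (percent), with points for the 3 P4 and the 3 P56 libraries and lines at their means. Glra2 and Glra1, Grin3a and Grin3b, and Tuba1a, Tuba4a and Tubb4a hold separate shares at the 2 ages, such as 28.9% against 1.71% for Glra2.

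Receptors for modulators moved in both directions. Of 8 serotonin receptors, Htr1d and Htr5a rose and Htr2a and Htr4 fell. Htr2a, a receptor through which serotonin excites motor neurons, fell from 311.5, 278 and 337 to 121, 154 and 152 (log2 fold change -1.11 ± 0.23, adjusted p = 8.3e-04), and Htr5a rose from 20.3, 21.9 and 25.04 to 49.7, 56.3 and 64.7. Of 5 purine receptors 3 rose, all of them ATP-gated channels. P2rx4 went from 38.4, 58.1 and 53.8 to 190.3, 179.7 and 161, P2rx5 from 16.9, 18.6 and 18.8 to 62.1, 68.4 and 70.02 and P2rx6 from 39.5, 24.1 and 50.1 to 81.4, 88.5 and 115, whereas the adenosine receptor Adora2a fell from 59.8, 46.04 and 48.8 to 0, 1.34 and 1.32. Chrm3, a muscarinic receptor, fell (log2 fold change -1.93) and the nicotinic subunit Chrna4 (log2 fold change -1.05). Of 16 neuropeptide genes, Sst and Nts fell, to 40, 12.1 and 40.95 and 8.28, 10.7 and 18.5 at P56, and none rose. Calca, the motor neuron peptide CGRP, overlapped, at 48.5, 37.3 and 108 and 60.7, 34.9 and 59.45. The inhibitory transmitter marker Slc6a5, a glycine transporter of inhibitory neurons, rose from 131, 124 and 72.6 to 285.5, 299 and 328, and the excitatory marker Slc17a6 read 258, 369 and 267 and 134, 149 and 188 and was not called. On omission of 1 library the call ended for Htr5a (without any 1 of the 6), Htr2a (without P56 replicate 1), Htr4 (without any 1 of the 6), P2rx6 (without P4 replicate 2, or P56 replicate 3), Chrna4 (without P4 replicate 3, or P56 replicate 1, 2 or 3), Sst (without P4 replicate 1 or 3, or P56 replicate 1, 2 or 3), Nts (without P4 replicate 2 or 3, or P56 replicate 1 or 2) and Slc6a5 (without P4 replicate 3).

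Of 29 voltage-gated potassium channel subunits, 5 were called higher (17.2%) and 3 lower. Kcna2, which sits beside the nodes of Ranvier, rose from 499, 552.5 and 763 to 1731, 1663 and 1943 (log2 fold change 1.56 ± 0.28, adjusted p = 2.4e-04) and made 16.5% ± 2.08 of Kv1 TPM at P4 and 28.7% ± 1.102 at P56. Kcnh2, the ERG channel, and the silent subunit Kcng1 rose (log2 fold changes 1.3 ± 0.21 and 2.13 ± 0.49). Kcnd2, a channel of transient A-type current, fell from 485, 563 and 499.6 to 190.3, 199.9 and 179.7 and Kcns2 (log2 fold change -1.5). Kcnq1 read 28.2, 40.6 and 45.1 and 1.38, 0 and 0. Of 9 auxiliary subunits Kcnab2, Kcnab3 and Kcnip2 rose (log2 fold changes 1.40, 1.95 and 1.59). A single omitted library ended the call of Kcng1 (without P4 replicate 1, 2 or 3, or P56 replicate 1 or 3), Kcnd2 (without P4 replicate 2, or P56 replicate 1, 2 or 3) and Kcnip2 (without P4 replicate 1 or 3, or P56 replicate 1 or 2).

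Of 23 inward-rectifier, tandem-pore and ion-activated potassium channels, 5 rose and 3 fell. Kcnt1, the sodium-activated channel Slack, rose from 562, 608 and 546 to 2245.5, 2438.5 and 1727 (log2 fold change 1.90 ± 0.19, adjusted p = 4.9e-07). It made 68.1% ± 7.96 of Slack and Slick TPM at P4 and 93.9% ± 1.67 at P56. The G protein-gated channels Kcnj3, Kcnj6 and Kcnj9 rose together, Kcnj9 from 25.96, 44.9 and 37.6 to 174, 192 and 140.0, Kcnj6 from 47.4, 83.3 and 50.1 to 153, 166 and 123 and Kcnj3 from 192, 182 and 213 to 498, 473 and 486. Kcnj2, a strong inward rectifier, fell from 189.6, 161 and 199 to 70.3, 53.65 and 64.7, and the tandem-pore channel Kcnk13 (log2 fold change -1.31). Kcnj8, a pericyte marker, went from 104, 88.8 and 72.6 to 4.14, 0 and 1.32 with the other pericyte markers. None of these 23 was called between P13 and P56 and Kcnt1 had 1194.5 at P13. Calls lost on leaving out 1 library were those of Kcnk13 (without P4 replicate 1, 2 or 3, or P56 replicate 1 or 3).

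Some sodium channel shares did not overlap between the ages, at a similar total. The alpha subunits totalled 224 ± 44.9 TPM at P4 and 223 ± 22.3 TPM at P56. The shares of Scn1a, 20.2% ± 0.884 and 21.5% ± 2.94, and of Scn2a, 35.5% ± 1.98 and 38.2% ± 2.75, overlapped. Scn8a, the main channel of the adult axon initial segment and node, made 19.7% ± 1.27 at P4 and 28.9% ± 3.92 at P56. Scn9a fell from 1450.3, 1495 and 1412.5 to 415, 484 and 456 (log2 fold change -1.68 ± 0.36, adjusted p = 0.0011), and the embryonic subunit Scn3a went from 14.2% ± 0.448 to 8.27% ± 0.211 of the total. The resurgent current subunit Scn4b rose (log2 fold change 1.75 ± 0.20). Of 21 calcium channel subunits 3 rose and 1 fell. The rises were those of the T-type Cacna1i (1.25 ± 0.30), of Cacna2d3, from 555, 658 and 571 to 1375, 1380.2 and 1461, and of Cacng7. The fall was that of Cacng4, and it and Cacng7 are the AMPA receptor regulatory genes given above. No HCN channel of 4 was called by the main rule. However, 1 of them, at a log2 fold change of -1.43, was called lower with the limit on the adjusted p. It was also called with DESeq2 and with only the P4 and P56 libraries. Of 14 chloride channels 5 rose (3 without P4 replicate 3, and 3 without P56 replicate 2) and none fell: Clcn1, the chloride channel best known from muscle, went from 12.4, 17.5 and 13.8 to 56.55, 69.7 and 52.8, and Ano3, Ano4, Clcn2 and Clcn7 rose (log2 fold changes 1.52, 1.06, 1.03 and 1.13). Of 12 TRP channels Trpm2 and Trpm4 rose, Trpm2 from 230.2, 269.7 and 262 to 768, 805 and 625, and 2 fell, among them Trpm6. Leaving out 1 library ended the call of Scn9a (without P56 replicate 1, 2 or 3), Cacna1i (without P4 replicate 1 or 3, or P56 replicate 1, 2 or 3), Cacna2d3 (without P4 replicate 1 or 3, or P56 replicate 3), Clcn1 (without P4 replicate 1, 2 or 3, or P56 replicate 2), Ano4 (without P4 replicate 1) and Clcn2 (without P4 replicate 3, or P56 replicate 2).

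Of 8 gap junction and pannexin genes, 3 fell and none rose. Gjc1, a connexin of neurons and vessel walls, fell from 129.8, 142.5 and 144 to 6.896, 10.7 and 9.25 (log2 fold change -3.93 ± 0.29, adjusted p = 1.5e-08), Gja1, the astrocyte connexin, from 283, 253 and 247 to 28.97, 38.9 and 52.8, and Gja4, a connexin of arteries, from 60.9, 25.2 and 18.8 to 0, 2.68 and 3.96. Gja1 is itself on the astrocyte list. Calcium buffers and release channels moved both ways, with 3 of 18 higher and 6 lower, and none higher and 5 lower between P13 and P56. Itpr3, an IP3 receptor, rose from 439, 358 and 478 to 1415, 1449.9 and 1026.5 (log2 fold change 1.61 ± 0.20, adjusted p = 4.6e-06) and Calb2, calretinin, from 21.4, 40.6 and 35.1 to 59.3, 68.4 and 97.8, while Calb1, calbindin, fell from 34.99, 42.75 and 57.6 to 5.52, 10.7 and 9.25. The calmodulin genes Calm2 and Calm3 both fell (log2 fold changes -1.13 and -1.13), and Ryr1 (log2 fold change -1.71). Of 19 pump genes, Atp1b3 rose (1.17 ± 0.13) and 4 fell, among them Atp1b2, Atp2a3 and Fxyd6. Atp1b2, a glial sodium pump subunit, read 446, 458 and 386 and 141, 186 and 222. Without 1 library the call was lost for Calb2 (without P4 replicate 1, or P56 replicate 3).

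Few genes of the release machinery were called. Of 30 synaptic vesicle and release genes, 1 was called in each direction, and the list summed to 29130, 29612 and 28324 at P4 and 34922, 34108 and 33211 at P56. Syn3, a synapsin, rose from 228, 346 and 212 to 641, 613 and 518, and the plasma membrane SNARE Stx1a fell from 299, 253 and 282 to 73.1, 106 and 48.9 (log2 fold change -1.87 ± 0.31, adjusted p = 1.0e-04). Vamp1, the main synaptobrevin of the neuromuscular junction, read 377, 378 and 387 and 674, 696 and 699, a change of 0.86 ± 0.16 that was under 2-fold, and Vamp2 read 403, 367 and 245 and 329.6, 315 and 287. Snap25 read 1762, 1706 and 1766 and 2869, 2728 and 3201 and was not called. Of 14 synaptotagmins Syt12, Syt16 and Syt17 fell. On the receiving side, Dlg4, the scaffold PSD-95, rose from 492, 466 and 416 to 1196, 1204.5 and 942 (log2 fold change 1.28 ± 0.19, adjusted p = 4.3e-05). Among CaM kinase II genes Camk2d fell from 2085, 2323 and 1937 to 963, 935 and 974. Its share of their TPM was 50.3% ± 2.43 at P4 and 28.6% ± 2.62 at P56, and that of Camk2b was 20.2% ± 1.900 and 34.8% ± 2.45. Camk2a rose from 91.4, 116 and 78.9 to 203, 201 and 188. Of 29 neurexins, neuroligins and organisers, 1 rose, Ntng2 (1.64 ± 0.39), and 2 fell, Cbln2 and Slitrk2. When 1 library was left out, the call was lost for Syt17 (without P56 replicate 3), Camk2a (without any 1 of the 6), Ntng2 (without P4 replicate 2 or 3, or P56 replicate 1 or 2) and Cbln2 (without any 1 of the 6).

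The neonatal cytoskeleton was richer in tubulin and actin RNA. Of 11 tubulins 7 were called lower and none higher, with a median of -1.92, and of 19 actin genes and regulators 10 were called lower and 2 higher. Tuba1a, the tubulin of growing axons, fell from 1469.5, 1229.9 and 1268.5 to 234, 248 and 308 (log2 fold change -2.33 ± 0.28, adjusted p = 4.1e-06), and Tubb2b from 567, 535 and 532 to 22.1, 12.1 and 43.6. Tuba4a, a late alpha tubulin linked to amyotrophic lateral sclerosis, read 89.2, 61.4 and 77.6 and 108, 105 and 139, so its share of alpha tubulin TPM was 3.73% ± 0.658 at P4 and 24.4% ± 4.39 at P56. Tubb4a went from 9.93% ± 1.09 to 28.4% ± 2.19 and Tubb2b from 14.4% ± 1.04 to 1.54% ± 0.842 of beta tubulin. Tubulin, actin and ribosomal protein genes have near-identical copies, and how reads were split among them is uncertain. Actb fell from 4912, 3939.7 and 4235 to 458, 498 and 659 (log2 fold change -3.02 ± 0.22, adjusted p = 1.2e-08) and Actg1 from 2971, 2264 and 2426 to 388, 475 and 514. The monomer-binding thymosins Tmsb10 and Tmsb4x fell (log2 fold changes -3.61 ± 0.26 and -3.29 ± 0.24), and Marcks and Marcksl1, membrane-linked actin binders (log2 fold changes -3.54 ± 0.19 and -4.26 ± 0.24). The cofilin gene Cfl1 fell (log2 fold change -2.13 ± 0.17). Tmod1, which caps actin filaments, and Dbn1, drebrin, rose, Dbn1 from 1127.5, 891 and 839 to 1996, 2206 and 1597. Between P13 and P56 the counts were 8 of 11 tubulins and 10 of 19 actin genes lower and none higher. On omission of 1 library the call ended for Dbn1 (without P4 replicate 2 or 3, or P56 replicate 1 or 2).

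Neurofilaments set axon calibre, and no neurofilament subunit was called between P4 and P56. Nefm read 7678, 5757 and 7099 at P4 and 9011, 8299 and 7876 at P56, but 27881 on average at P13. Nefh, the heavy and latest subunit, read 2038, 1497 and 2031 and 3717, 3269 and 3642 with 10717 at P13, and its share of neurofilament TPM was 13.48% ± 0.406 at P4 and 21.65% ± 0.832 at P56. Nefl read 3315, 2406 and 3296 and 2065, 2025 and 2555, and Prph overlapped, at 1186, 788 and 969 and 1145, 1021 and 915.5. Between P13 and P56, 4 of the 7 filament genes were called lower. Vim and Nes, filaments of precursors, glia and endothelium, fell from 939, 852 and 794 and 1091, 988 and 955 to 27.6, 53.65 and 58.1 and 4.14, 20.1 and 18.5.

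Of 22 microtubule-associated genes only Stmn1, Mapre1 and Dcx were called, all lower. Stmn1, a tubulin-sequestering protein, fell from 335, 353 and 318 to 78.6, 50.97 and 80.6, and the growth-associated Stmn2 was lower without overlap but not called, at 1278, 1201 and 1287 and 891, 783 and 933. Of 40 kinesins 9 fell, and Kif4, Kif11, Kif18b, Kif20a, Kif22, Kif23, Kif2c and Kifc1 among them are mitotic motors, which moved with the proliferation markers. Kif26a fell from 252, 230.2 and 189 to 49.7, 76.5 and 40.95. Kif17, a dendritic motor that carries NMDA receptors, rose from 39.5, 49.3 and 35.1 to 138, 117 and 96.4 (log2 fold change 1.5 ± 0.23, adjusted p = 5.4e-05). Of 24 dynein and dynactin genes, only the light chains Dynlrb1 and Dynll1 were called, both lower. At the axon initial segment and node, Sptbn4 rose (log2 fold change 1.44 ± 0.21), Cntnap1, the paranodal Caspr, from 479, 412 and 441 to 1049.6, 1010.0 and 779, and Sptb (log2 fold change 1.18 ± 0.15), while the general spectrin Sptbn1 fell from 12958, 11921 and 11042 to 5677, 5342 and 5821. A single omitted library ended the call of Kif11 (without P56 replicate 1 or 2), Kif20a (without P4 replicate 2, or P56 replicate 1 or 2), Kif22 (without P4 replicate 1 or 2, or P56 replicate 1, 2 or 3), Kifc1 (without P4 replicate 2, or P56 replicate 3) and Dynll1 (without P4 replicate 3).

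**Figure D4:**
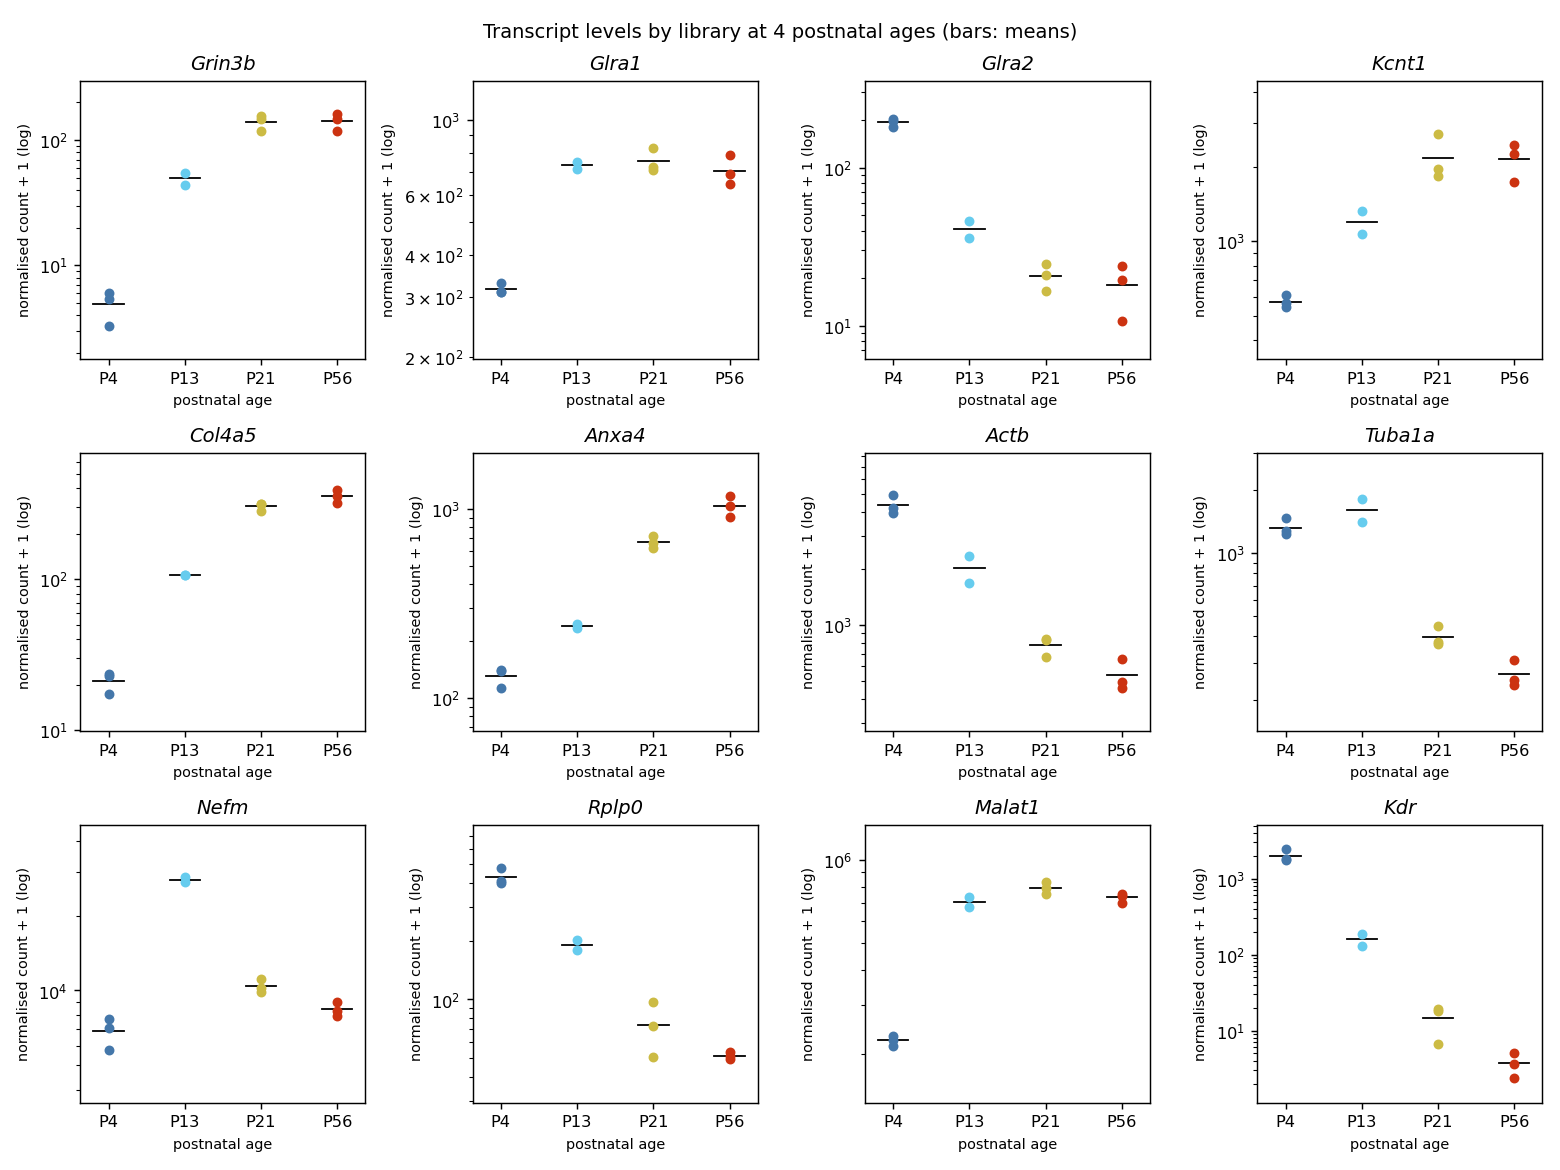
Normalised counts of 12 genes in each library at P4, P13, P21 and P56 (log axes, 1 added, each with its own range). Grin3b, Col4a5 and Anxa4 climb through P13 and P21, Glra2 and Kdr fall, Nefm is highest at P13, and Rplp0 and Actb lie lower at P56 than at P4.

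Guidance genes were called lower in each of 3 families and higher in none. Of 20 netrin, Slit and receptor genes, 8 were called lower, with a median of -0.97. Robo1 and Robo2, the Slit receptors, fell from 1222, 1130.2 and 1285 to 539, 486 and 569 and from 1319, 1493 and 1460.1 to 516, 534 and 567, and their ligand Slit2, itself abundant in motor neurons, fell from 6446, 5655 and 6682 to 2877, 2665 and 2941 (log2 fold change -1.15 ± 0.22, adjusted p = 4.8e-04). Ntn1, netrin 1, fell from 66.6, 71.3 and 68.9 to 4.14, 5.365 and 7.93, and its receptors Neo1 and Unc5d fell (log2 fold changes -1.16 and -1.26). Dcc read 727, 713 and 759 and 375, 323 and 407, at -0.99 ± 0.25 just under 2-fold. None of the 20 was called between P13 and P56. Calls lost on leaving out 1 library were those of Unc5d (without P4 replicate 2, or P56 replicate 1, 2 or 3).

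Of 30 semaphorins, plexins and neuropilins, 10 fell. Nrp1 and Nrp2, the semaphorin co-receptors, fell from 1354, 1242 and 1721 to 641, 523 and 583 and from 1590.3, 1562 and 1975 to 756, 655 and 612, and Sema3a, which holds back axon branching, fell from 888, 738 and 851.5 to 348, 311 and 293. Sema6d fell from 1897, 1724 and 1554 to 597, 573 and 567 (log2 fold change -1.57 ± 0.19, adjusted p = 4.6e-06). Plxnd1 and Sema3g, both known from vessels, went from 896, 771 and 701 and 20.3, 19.7 and 16.3 to 23.4, 34.9 and 27.7 and 1.38, 1.34 and 0, along with the endothelial markers. Of 21 ephrin and Eph genes 6 fell. Epha4, which steers limb motor axons dorsally or ventrally, fell from 433, 395 and 446 to 174, 148 and 179.7 (log2 fold change -1.34 ± 0.18, adjusted p = 1.3e-05) and Epha3 from 316, 235 and 275.5 to 64.8, 61.7 and 83.2. Ephb4, Efna1 and Epha2, all known from endothelium, were at 4 or fewer normalised counts in every P56 library. From P13 to P56 the counts were 2 lower and 1 higher of 30, and none of 21.

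Growth cone and axon growth genes fell in 6 of 22 cases and rose in none. The list also holds Kruppel-like factors, and Klf4, given above with the endothelial sums, is among the 6. Gap43, the classical marker of growing axons, fell from 321, 363 and 341 to 45.5, 36.2 and 54.2 (log2 fold change -2.91 ± 0.49, adjusted p = 1.3e-04), and Basp1, a related membrane protein, from 590.3, 664 and 671 to 106, 110.0 and 124. Chl1, an adhesion molecule of the L1 family, fell from 736, 887 and 858 to 389, 331 and 380.5. The collapsin response genes Dpysl5 and Crmp1 were not called, at -0.39 ± 0.19 and -0.15 ± 0.28. Of 26 classical cadherins and delta protocadherins, 11 fell, Cdh11 from 843, 739.9 and 831 to 171, 166 and 193 and Cdh2, N-cadherin, from 1109, 1085 and 1088 to 444, 522 and 564, with Pcdh11x, Cdh6, Cdh9, Cdh24, Pcdh8, Pcdh10, Pcdh18 and Pcdh19. The remaining one, Cdh5, is the endothelial cadherin, and 1 of the 26 was called between P13 and P56. The clustered protocadherins, which give neurons their surface code, were nearly all uncalled: 54 of 55 (6 were called higher between P13 and P56), the exception being Pcdhgc3, which fell from 341, 261 and 272 to 59.3, 93.9 and 88.5. Leaving out 1 library ended the call of Pcdh10 (without P4 replicate 2 or 3, or P56 replicate 1, 2 or 3).

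Collagens changed in both directions, with 8 of 36 called higher and 7 lower, although without P4 replicate 3 only 4 were called higher and without P4 replicate 1 only 4 lower. Col5a1, a fibrillar chain, rose from 80.1, 77.8 and 51.3 to 1218, 1394 and 769 (log2 fold change 4.01 ± 0.35, adjusted p = 1.1e-07). Col4a5, a basement membrane chain, rose from 22.6, 21.9 and 16.3 to 319, 392 and 353 (log2 fold change 4.12 ± 0.19, adjusted p = 1.3e-10), and its partner Col4a6 from 11.3, 8.77 and 6.26 to 52.4, 52.3 and 27.7. Col11a1, Col16a1, Col27a1, Col2a1 and Col5a3 rose (log2 fold changes 1.02, 1.89, 1.57, 2.25 and 2.51). Col4a1 and Col4a2, the common basement membrane chains of vessels, fell from 3861, 3308 and 2772 to 818, 923 and 654 and from 3351, 2813 and 2426 to 1508, 1648 and 1091, and the fibroblast collagen Col3a1 from 201, 169 and 106 to 16.55, 28.2 and 33.03. The falls of Col4a1 and Col4a2 went with those of the vessel markers, and from P13 to P56 Col4a2 was higher at the later age, with means of 593 and 1416. In that second contrast 8 of 36 collagens were called higher and none lower. Without 1 library the call was lost for Col4a6 (without P4 replicate 3), Col11a1 (without P4 replicate 3, or P56 replicate 2), Col27a1 (without P4 replicate 2 or 3, or P56 replicate 2), Col2a1 (without P4 replicate 1 or 3, or P56 replicate 1, 2 or 3) and Col4a2 (without P4 replicate 1 or 2, or P56 replicate 1 or 3).

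Matrix of the perineuronal net, which surrounds mature motor neurons, was called higher in 3 of 14 cases and lower in 4 (2 without P56 replicate 3). Acan, aggrecan, rose from 48.5, 64.7 and 66.4 to 132, 126 and 129, Hapln4, a link protein, from 99.3, 81.1 and 138 to 205.5, 266 and 236 (log2 fold change 1.16 ± 0.21, adjusted p = 2.9e-04), and Bcan, brevican, from 345, 329 and 344 to 912, 845 and 712. The juvenile proteoglycans Vcan and Ncan fell from 1354, 1241 and 1142 to 145, 157 and 165 and from 786, 739 and 641 to 208, 196 and 176. Vcan is itself on the oligodendrocyte precursor list, whose sum went from 1704 to 1945 at P4 to 274 to 328 at P56. It averaged 1246 of a mean sum of 1798 at P4 and 156 of 300 at P56, so that fall is largely its own. In lectican TPM, Bcan went from 42.8% ± 3.29 to 88.5% ± 1.86 and Vcan from 30.8% ± 0.391 to 3.18% ± 1.18. Tnc fell (log2 fold change -4.09 ± 0.42) and Reln (log2 fold change -1.15 ± 0.25), and Tnr, tenascin-R, read 628, 683 and 774 and 1374, 1209.8 and 1259 without being called. When 1 library was left out, the call was lost for Acan (without any 1 of the 6), Hapln4 (without P4 replicate 2), Bcan (without P4 replicate 1, 2 or 3, or P56 replicate 1 or 2), Ncan (without P56 replicate 3) and Reln (without P4 replicate 2, or P56 replicate 1, 2 or 3).

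Trophic receptors fell in 10 of 26 cases and rose in none. Ret, the receptor for motor neuron survival factors of the GDNF family, fell from 1709.9, 1608 and 1772 to 687, 726 and 605 (log2 fold change -1.33 ± 0.32, adjusted p = 0.003), together with its co-receptor Gfra1 and, from 123, 134 and 98.9 to 30.3, 24.1 and 21.1, Gfra2. Ngfr, the p75 receptor that motor neurons lose after birth, read 72.2, 42.75 and 46.3 and 1.38, 1.34 and 1.32. Igf1r fell from 1319, 1115 and 903 to 532, 571 and 534. The neurotrophin receptors Ntrk2 and Ntrk3 were not called, at 0.21 ± 0.25 and 0.48 ± 0.23, nor were Lifr and Cntfr, the receptors of ciliary neurotrophic factor. Kdr, Flt1, Pdgfrb and Osmr, which are known from vessels and their mural cells, and Fgfr3, an astrocyte marker, made up the rest of the 10. Between P13 and P56, 4 of the 26 were called lower. On omission of 1 library the call ended for Ret (without any 1 of the 6), Gfra1 (without P4 replicate 1 or 3, or P56 replicate 1, 2 or 3) and Igf1r (without P4 replicate 1).

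Several fetal growth genes fell. Igf2, the fetal growth factor, which meninges and vessels also make, fell from 1182, 761 and 629.9 to 5.52, 17.4 and 18.5 (log2 fold change -5.93 ± 0.35, adjusted p = 1.5e-09). Of 22 growth and imprinted genes, 8 were called lower and none higher, against 3 and none between P13 and P56. Igf2bp3, an RNA-binding protein of growing cells, fell (log2 fold change -4.50 ± 0.56), and its relative Igf2bp1 read 6.77, 8.77 and 3.76 and 0, 0 and 1.32 and was not called. Igf1 fell from 99.3, 136 and 158 to 26.2, 41.6 and 51.5 and the cell cycle inhibitor Cdkn1c from 38.4, 43.8 and 23.8 to 11.03, 9.39 and 7.93. Not all imprinted genes followed. Peg3 read 9884, 10938 and 10312 and 20059, 19719.8 and 18811, higher at P56 but by less than 2-fold (log2 fold change 0.91 ± 0.20, adjusted p = 0.0014), the noncoding Meg3 read 152524, 154374 and 145723 and 234687, 216189 and 185830.0, and Dlk1 overlapped, at 76.7, 92.1 and 86.4 and 73.1, 83.2 and 91.2. Of 21 apoptosis genes 6 fell. Hrk, a neuronal death activator, fell (log2 fold change -1.53 ± 0.37), Casp6 (log2 fold change -1.61 ± 0.29) and the survival genes Bcl2 and Mcl1 (log2 fold changes -1.22 ± 0.19 and -1.06 ± 0.18). Casp8 read 79.01, 55.9 and 61.4 at P4 and 1.38, 1.34 and 1.32 at P56. A single omitted library ended the call of Cdkn1c (without P4 replicate 2, or P56 replicate 3), Hrk (without P4 replicate 1 or 2, or P56 replicate 2 or 3) and Mcl1 (without P4 replicate 1, or P56 replicate 2).

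Chromatin genes were called in some lists and not in others. None of 25 BAF remodelling subunits was called. Actl6b and Dpf1, the neuronal subunits, read 84.65, 84.4 and 105 and 156, 173 and 132, and 111, 94.3 and 97.7 and 56.55, 85.8 and 76.6. Dnmt3a, a writer of neuronal DNA methylation, was not called either (0.18 ± 0.15), and Uhrf1, which acts at replication, fell from 41.8, 49.3 and 18.8 to 1.38, 0 and 6.61. Among 18 polycomb genes Cbx7 and Ring1 rose (log2 fold changes 1.82 ± 0.20 and 1.65 ± 0.23), and 2 fell, among them Rnf2 (log2 fold change -1.39 ± 0.18). Ring1 and Rnf2 are alternative ligases of the same complex. Of 9 high mobility group genes 5 fell, Hmgb1 from 430.0, 323 and 337 to 71.7, 79.1 and 116 and Hmgb3 from 207, 186 and 182 to 33.1, 46.9 and 27.7. Of 9 replication-dependent histone genes 4 were called lower.

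RNA-binding and splicing factors had no common direction, with 16 positive and 17 negative fold changes and a median of -0.06. Elavl2 fell from 2467, 2389 and 2589.6 to 1094, 948 and 1156, Nova1 from 1088, 1254 and 1163 to 479, 468 and 608, and Ptbp1 and Ptbp3, repressors of neuronal exons (log2 fold changes -1.03 ± 0.22 and -2.05 ± 0.19). Ptbp2 read 1173, 1365 and 1021 and 709, 630.4 and 724, under 2-fold. Qk, a glial and vascular splicing factor that neurons also make, fell from 3313, 3273 and 2711 to 941, 984.5 and 1170.5, and Cpeb1, which controls translation of stored messages, rose from 252, 318 and 318 to 666, 629 and 671 (log2 fold change 1.15 ± 0.16, adjusted p = 1.9e-05). In all, 1 of 33 rose and 5 fell (15.2%, beside 11.7% of all genes tested). Of 13 long noncoding RNAs only Malat1, retained in nuclear speckles, was called, and it rose from 224718, 213904 and 231179 to 752974, 739642 and 700454 (log2 fold change 1.71 ± 0.27, adjusted p = 6.4e-05). It took 4.77%, 4.46% and 4.83% of all counts at P4 and 13.85%, 13.86% and 13.49% at P56. Calls lost on leaving out 1 library were those of Ptbp1 (without P4 replicate 1, or P56 replicate 3).

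The cytosolic ribosomal proteins fell together. Of 79 tested, 64 were called lower and none higher, with a median log2 fold change of -1.74. Rplp0, of the ribosome stalk, fell from 474, 408 and 397 to 52.4, 48.3 and 50.2 (log2 fold change -3.08 ± 0.20, adjusted p = 2.8e-09), and Rpl38 fell most (log2 fold change -3.18 ± 0.33, adjusted p = 9.2e-07). Rpl3 and Rpl4, more abundant members, fell from 916, 809 and 829 to 291, 321 and 314 and from 739, 626 and 659 to 203, 278 and 252. From P13 to P56, 57 of the 79 were called lower, again with none higher. All 79 had a peak of open chromatin at an annotated start in each of the 4 ATAC libraries, beside 83.2% to 84.7% of all genes tested. The same held for all 78 nuclear-encoded respiratory chain genes and all 34 proteasome genes. Eef1a1, the elongation factor that brings tRNAs to the ribosome, fell from 2493, 2250.5 and 2161 to 222, 282 and 387 (log2 fold change -2.95 ± 0.25, adjusted p = 6.7e-08). Of 57 translation factors 10 fell and Eif2d rose (1.22 ± 0.17), and 16 were called lower and none higher between P13 and P56.

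Respiratory chain genes were lower mainly by less than the limit. Of 78 nuclear-encoded subunits 15 were called lower (9 without P56 replicate 1) and none higher, yet 71 had negative fold changes, with a median of -0.74. Atp5a1, of the ATP synthase, fell from 795, 705 and 813 to 327, 346 and 424 and Uqcrb from 158, 167 and 146.5 to 48.3, 65.7 and 89.8. At P13 these stood at 1314 and 331, and 64 of the 78 were called lower from P13 to P56. Mitochondrial transcripts, which lie outside the nucleus, were called lower in 6 of 13 cases, which became 2 without P56 replicate 1 and 3 without P56 replicate 2, mt-Co1 reading 2059, 1887 and 2001 and 329.6, 399.7 and 750.4. The list summed to 913, 1149.5 and 2441 in the P56 libraries, highest in replicate 3, and to between 5139 and 5319 at P4. Of the lactate dehydrogenase subunits, Ldha fell from 167, 146 and 143 to 16.55, 28.2 and 51.5, whereas Ldhb, the form of oxidative cells, overlapped, at 259.6, 303 and 303 and 303, 256 and 351. Slc16a1 and Slc2a1, the lactate and glucose carriers abundant in brain endothelium, fell from 1686, 1473 and 1209.7 to 71.7, 50.97 and 43.6 and from 606, 461.5 and 413 to 27.6, 28.2 and 47.6. Pfkp, a phosphofructokinase, fell from 7791, 8781 and 6292 to 2996, 2734 and 2975. Of 23 sterol synthesis genes 3 rose, Lss, Nsdhl and Tm7sf2 (1.01, 1.41 and 1.03), and none fell, while between P13 and P56 4 were called lower. The glycolysis and lactate list held 5 of 23 called lower, and 8 between P13 and P56. Leaving out 1 library ended the call of Atp5a1 (without P56 replicate 1), Lss (without P4 replicate 1, or P56 replicate 1) and Tm7sf2 (without P4 replicate 2 or 3, or P56 replicate 1 or 2).

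Of 34 proteasome subunits 2 fell (5 without P56 replicate 3), of 8 CCT chaperonin subunits 2 fell, and of 21 heat shock proteins 2 rose and 3 fell. From P13 to P56, 8 proteasome subunits, 2 chaperonin subunits and 8 heat shock proteins were called lower and none higher, with medians of -0.70, -0.63 and -0.84. Hsp90ab1 and Hspa5, of the cytosol and the endoplasmic reticulum, fell from 3501, 2835 and 3148 to 1212, 1191 and 1641 and from 716, 631 and 661 to 177, 194.5 and 229. Bag3, a co-chaperone of selective autophagy, rose from 47.4, 57 and 50.1 to 117, 122 and 88.5 and Cryab (log2 fold change 2.08 ± 0.47). Mcoln1, a lysosomal calcium channel, rose from 231, 187 and 183 to 477, 563 and 491 (log2 fold change 1.35 ± 0.16, adjusted p = 4.2e-06), alone among 26 autophagy and lysosome genes, of which 3 fell, among them Ctsl and Lamp1. Without 1 library the call was lost for Bag3 (without P4 replicate 1, 2 or 3, or P56 replicate 1 or 2) and Cryab (without P4 replicate 1 or 3, or P56 replicate 3).

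Genes linked to amyotrophic lateral sclerosis, in which motor neurons of adults degenerate, showed no common direction. Of 25 tested, 2 were called higher and 3 lower, with a median of -0.02, and between P13 and P56 3 were called lower and none higher. Optn, an autophagy receptor, rose from 230.2, 265 and 227 to 628, 553 and 449 (log2 fold change 1.17 ± 0.22, adjusted p = 4.0e-04), and Cfap410 from 98.2, 115 and 105 to 243, 227 and 192. Ubqln2, which delivers proteins for degradation, fell from 309, 242 and 239 to 77.2, 96.6 and 133, Vcp from 796, 665 and 635 to 323, 341 and 314 and Pfn1, profilin, from 304, 238 and 284 to 119, 106 and 99.1. Tardbp was higher at P56 without overlap but by less than 2-fold, at 0.45 ± 0.17, and Sod1 read 274, 284 and 275.5 and 165.5, 188 and 246. In the MHC class I and interferon list of 10, B2m, the class I light chain, fell from 100.4, 97.6 and 81.4 to 6.896, 6.71 and 9.25, H2-D1 overlapped, at 133, 111 and 81.4 and 91.03, 109 and 75.3, and Irf9 and Ifi27 rose, Ifi27 from 18.1, 6.58 and 5.01 to 70.3, 61.7 and 71.3. When 1 library was left out, the call was lost for Cfap410 (without P4 replicate 1, or P56 replicate 1), Vcp (without P4 replicate 1), Irf9 (without P4 replicate 2 or 3, or P56 replicate 1, 2 or 3) and Ifi27 (without P4 replicate 2 or 3).

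The genes with the largest changes, among those with a mean of at least 50 normalised counts at an age, were taken irrespective of family. Among the 15 largest rises, Adamtsl5, a secreted matrix protein, read 0, 0 and 1.25 at P4 and 78.6, 56.3 and 39.6 at P56. Pik3r5, a regulatory subunit of phosphoinositide 3-kinase, read 4.51, 0 and 0 and 53.8, 52.3 and 47.6, and the heat shock factor Hsf4 read 4.51, 7.67 and 5.01 and 80, 76.5 and 60.8. Wnk4, a kinase that regulates chloride cotransporters, rose from 9.03, 12.1 and 8.77 to 123, 149 and 92.5 (log2 fold change 3.59 ± 0.30, adjusted p = 7.6e-08), and Ldhd, a mitochondrial D-lactate dehydrogenase, from 6.77, 8.77 and 6.26 to 114.5, 80.5 and 63.4. Mycbpap, Klrg2, Ptgds and Ighm were also among them, beside Grin3b, Grin2c, Col4a5, Col5a1 and Aox1. Ptgds, a prostaglandin synthase of meninges and oligodendrocytes, read 9.03, 0 and 2.504 and 30.3, 75.1 and 62.1, so its P56 values spanned more than 2-fold.

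Of the 15 largest falls, 12 had no read in any P56 library. Rassf9 read 387, 318 and 237 at P4, Htra3 251, 192 and 184 and Pcdh12 183, 175 and 213, and Erg, Foxf2, Slc38a5, AU021092, Ppic, Tmem204, Icam2, Mmp25 and Hist1h2ap were likewise at 0 at P56. Cd93, Kdr and Slc22a8 made up the rest, with Cd93, a receptor of endothelium, at 1844, 1427 and 1489 and 1.38, 1.34 and 0. Many of these genes are known from endothelium, pericytes or meninges, and Hist1h2ap from dividing cells. At P13 the same genes read 86.2 for Cd93 and 12.8 for Rassf9 on average.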

How the data were processed

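Nuclei of spinal motor neurons were captured on beads and their total RNA, depleted of ribosomal RNA, was made into libraries with a SMARTer Stranded Pico kit. Per the labels and the submitters' processing notes, the authors trimmed reads with Trim Galore (cutadapt 0.6.2), aligned them to mm10 with STAR 2.5.2b and quantified genes with RSEM 1.3.0, and the deposited values are estimated counts, in which reads that map to several genes are divided between them. The TPM values, scaled by effective gene length by RSEM, were used as deposited. For chromatin, the authors aligned ATAC reads with BWA, called peaks in each library with MACS2 2.2.7.1, and deposited each peak's fold enrichment over its own library. Read depth behind the peaks is unknown, and the annotation release was not given in the sources used here.

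Estimated counts were rounded, and a gene was kept where all replicates of any age reached 5 CPM. Reads of near-identical paralogues, such as those of histone, ribosomal protein and tubulin genes, may be split between copies or pseudogenes. edgeR 4.0.16 (R 4.3.3, TMM scaling) was fitted over the 18 in vivo libraries of 7 ages by the quasi-likelihood test, with an unadjusted p under 0.001 and at least a 2-fold difference as the rule for a call. Adjusted p-values are by Benjamini-Hochberg. Normalised counts were divided by median-of-ratios size factors. On simulated counts for 15030 genes the comparison of P56 with P4 recovered 21 of 50 genes raised 2-fold, 49 of 50 raised 4-fold, 23 of 50 lowered to 0.5 and 50 of 50 lowered to 0.25, and called 17 unchanged genes. The members and gene lists were chosen with earlier results of these data known. Genes were named as preset key members, as the 2 highest and the 2 lowest called genes of a list, as the 15 highest and the 15 lowest called genes of all with a mean of at least 50, or as members of lists of at most 4 tested genes, and genes named besides these were chosen after their values were seen. Alternatives were another scaling, no filter, other tests, fewer libraries and each library left out. Promoter sequences are from RefSeq. Some genes of the lists are not reported here by name.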

Additional observations from a re-analysis of the deposited data

How the results depend on the processing

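The 904 genes called higher and the 1765 called lower at P56 became 898 and 1774 with median-of-ratios scaling, 1235 and 2331 without a filter, 1012 and 1620 with only the P4 and P56 libraries, 1056 and 1877 with DESeq2, and 1111 and 2060 with a likelihood ratio test. Leaving out each library in turn gave 729 to 879 higher and 1522 to 1698 lower. With P13 in place of P4, an alternative chosen after seeing the data, 429 were higher and 1135 lower. Same-numbered P4 and P56 libraries did not deviate together (correlations -0.028, -0.0015 and 0.018), so the numbers pair no samples, and a replicate block gave 983 and 1582. Of 294 called single genes named here, 247 to 259 were called without 1 library and 72 lost the call at least once, among them Ret, Gfra1, Acan, Nr5a2, Htr2a, Scn9a, Clcn1, Vcp and Nkx6-1. None of the 294 changed sign with another scaling, filter or test, with the block or without 1 library, in the fits that tested it. With the block 277 single genes were called. Col4a2, Igf1r, Nr2f1, Ptbp1 and Zeb2 were tested there and lost the call. Other called genes no longer passed the count filter in that fit and were not tested. Proliferation markers called lower went from 13 to 8, and replication-dependent histone genes from 4 to 1, with only the P4 and P56 libraries. Of 73 subunit shares, 65 did not overlap between the ages when counts replaced TPM, beside 62 with TPM, but 32 of the 73 differences moved by more than the spread between replicates and the difference in the share of Kcna1 turned to -0.508 percentage points.

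Uncalled genes turned in sign. With the block, Mmp9 read -0.0075 and Xist 0.41 on the log2 scale. Over the libraries left out, the log2 fold changes ran from -0.59 to 0.27 for Calca, -0.12 to 0.037 for Dlk1, -0.080 to 0.75 for Fos, -0.43 to 0.14 for Kdm5d, -0.046 to 0.18 for Ldhb, -0.45 to 0.21 for Mmp9, -0.48 to 0.62 for Mnx1, -0.094 to 0.15 for Nfic, -0.068 to 0.23 for Prph, -0.31 to 0.019 for Vamp2 and -0.99 to 0.17 for Xist. Changes of exactly 2-fold were often not called on simulated counts. The rule for a call needs an estimate of at least 2-fold, so that recovery cannot show what 3 pools an age can detect. The libraries hold nuclear RNA of all tagged nuclei together, so a change within one kind of motor neuron and a change in its share cannot be told apart. The gentler homogenisation, the lower purity of the capture and the vascular RNA at P4 moved with age, and their part in the results was not tested beyond the values from P13.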

Other observations

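Ighm, the heavy chain of immunoglobulin M and a product of B cells, read 1.13, 3.29 and 0 normalised counts in the P4 libraries and 207, 188 and 164 in the P56 libraries, with 105.8 and 96.8 at P13 and a mean of 205 at P21. The groups did not overlap, and the log2 fold change was 6.82 ± 0.42 with an edgeR adjusted p of 8.1e-09. Of other B cell genes, chosen after this value had been seen, Igkc, the kappa light chain, Ighd, Ms4a1, which encodes CD20, and Cd79b were at 0 in all 3 P56 libraries, and Cd79a read 1.38, 0 and 1.32. Jchain, which joins immunoglobulin M subunits, read 13.54, 16.4 and 3.76 at P4 and 16.6, 13.4 and 13.2 at P56.

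For some families the summed counts at P13 lay outside the range from P4 to P56. The summed normalised counts of neurofilament and other intermediate filament genes were 16681, 12646 and 15529 at P4 and 16143, 14892 and 15290.2 at P56. The mean of the 2 P13 libraries was 47505. Cytosolic ribosomal protein genes summed to between 22979 and 29594 at P4 and to between 13651 and 14698 at P56, with a mean of 52560.2 at P13. That sum does not describe each member. The median log2 fold change to P56 was -1.74 from P4 and -1.62 from P13. Rplp0 read 179 and 202 at P13, below its 397 to 474 at P4. For nuclear-encoded respiratory chain subunits the sums were 10682 to 11713 at P4 and 7051 to 8269 at P56, with a mean of 19033 at P13. These sums were chosen after the values had been seen and were not tested.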
